A study of Sus scrofa with 15 samples.

Results

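Pig (Sus scrofa) penile corpus cavernosum that carried the implant named implantation A was set against corpus cavernosum with a defect, across all genes of the count table. The comparison was defined by the labels and not by measured values. It holds 3 libraries labelled implantation A and 3 labelled defect, 6 of the 15 samples of the series, and 3 libraries of normal corpus cavernosum entered the same fit and are quoted as a level. The series measured polyadenylated RNA by sequencing, and its design compares implantation A, defect and normal tissue in pairs. Each library is named here by its group and the number in its title. The labels give no genotype, age, agent or time for these groups, do not spell out what implantation A is made of, and leave unsaid whether 1 or several animals stand behind a group. P-values thus measure the variation among these libraries only, and this may be technical. Beyond counting error, the common coefficient of variation was small: 2.34% within implantation A, 7.31% within defect and 6.19% within normal. Whether the libraries of a group are repeats of 1 sample was not tested, so small p-values need not carry over to other animals.

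The corpus cavernosum is a sponge of blood spaces lined by endothelium and held by trabeculae of smooth muscle and collagen. Nitric oxide raises cyclic GMP in the smooth muscle, which relaxes and lets the spaces fill with blood, and phosphodiesterases end the signal. In a wound that is not repaired, macrophages clear debris and fibroblasts lay down collagen, which can take the place of contractile tissue.

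Depth differed sharply within one group. Total counts were 19644793, 18941857 and 18699034 in implantation A 1, 2 and 3, against 207769, 250178 and 17703564 in defect 1, 2 and 3. Defect 3 held 97.5% of the counts of its group. A floor of 3 counts stood at 14.4 CPM in defect 1, 12 CPM in defect 2 and 0.169 CPM in defect 3, before the scaling factors described next. Levels of single genes are CPM, counts relative to library size, scaled by TMM (trimmed mean of M values) factors, which were 1.02 in each implantation A library and 0.994, 0.964 and 0.816 in defect 1, 2 and 3. Over 677 genes with a mean of at least 200 CPM, defect 1 and defect 2 lay at a median log2 ratio of -0.0030 and -0.0035 to defect 3 by library total, but at -0.29 and -0.24 after TMM. The factors thus set the shallow libraries somewhat below defect 3, and by library totals alone the median log2 fold change of all genes moved to 0.33. RN18S, an 18S ribosomal RNA, took 0.144% to 0.228% of counts in implantation A and 0.170% to 0.221% in defect.

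The 4 genes given with the comparison marked both sides of it. ACTA2, the actin of contractile smooth muscle and of myofibroblasts, had 1634, 1629 and 1610.2 CPM in implantation A 1, 2 and 3, against 586, 560.2 and 719 CPM in defect 1, 2 and 3. MYH11, myosin heavy chain of smooth muscle, had 1929.5, 1951 and 1978 CPM in implantation A 1, 2 and 3, against 984, 1120.3 and 1216 CPM in defect 1, 2 and 3. For both genes every implantation A library lay above every defect library, with log2 fold changes of 1.28 ± 0.085 (SE, edgeR adjusted p = 1.54e-23) for ACTA2 and 0.77 ± 0.082 (SE, edgeR adjusted p = 3.67e-13) for MYH11. COL3A1, the type III collagen chain of provisional matrix, had 10209, 10217 and 10219 CPM in implantation A 1, 2 and 3, against 31904, 32157 and 39452 CPM in defect 1, 2 and 3, and its log2 fold change was -1.76 ± 0.093 (SE, edgeR adjusted p = 1.06e-29). ARG1, arginase of liver and of wound macrophages, had 0.35, 0.103 and 0.105 CPM in implantation A 1, 2 and 3, against 63, 37.3 and 64.6 CPM in defect 1, 2 and 3, which rest on 7, 2 and 2 counts in implantation A 1, 2 and 3, against 13, 9 and 933 counts in defect 1, 2 and 3. ARG1 was thus near the floor in implantation A, as in normal tissue with 0.179 ± 0.123 CPM (SD, n = 3), and its log2 fold change was -8.31 ± 0.23 (SE, edgeR adjusted p = 1.44e-49). Normal tissue had 746 ± 19.3 CPM of ACTA2, 1233 ± 23.1 CPM of MYH11 and 3252 ± 28.4 CPM of COL3A1 (SD, n = 3), so by these means, which were not tested against each other here, ACTA2, MYH11 and COL3A1 were higher in implantation A than in normal. In bulk tissue, fewer cells of a type and less RNA per cell cannot be told apart. On the length-scaled TPM values that the authors deposited, COL1A1 stood at 13102 ± 66.4 TPM over the implantation A libraries and 19576 ± 892 TPM over those of defect (SD, n = 3 each) and ACTA2 at 2947 ± 34.7 TPM over the implantation A libraries and 1019.9 ± 44.3 TPM over those of defect (SD, n = 3 each).

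Of 17855 genes tested with edgeR's quasi-likelihood test and Benjamini-Hochberg adjustment, 7465 changed (41.8%), 3642 of them higher in implantation A (20.4%) and 3823 lower (21.4%), with a median log2 fold change of 0.02. By library totals the split was 7931 higher (44.4%) and 1761 lower (9.86%), and on log2 of TPM plus 1 with limma it was 4694 higher (26.3%) and 959 lower (5.37%). A change of at least 2-fold was found for 2056 genes (11.5%), 1065 that rose (5.96%) and 991 that fell (5.55%), and 4677 called genes (26.2%) showed implantation A and defect libraries that did not overlap. Without defect 3, where only the shallow defect libraries remain, 935 of 18208 genes rose (5.14%) and 520 fell (2.86%). Without defect 1 and defect 2, which leaves 1 defect library assumed to vary like the other groups, 3598 of 18963 rose (19.0%) and 4222 fell (22.3%). These shares are the background for the counts of gene groups.

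Several of the largest falls were in genes known from activated macrophages, acute inflammation and matrix breakdown. COL6A5, a chain of collagen VI (chromosome 13, 2029543 to 2174404 on Sscrofa11.1), had 0.3, 0.413 and 0.789 CPM in implantation A 1, 2 and 3, against 300.4, 266 and 248 CPM in defect 1, 2 and 3. CHI3L1, a secreted chitinase-like glycoprotein of activated macrophages and chondrocytes (chromosome 9, 113885541 to 113895033), had 5.39, 4.23 and 4.1 CPM in implantation A 1, 2 and 3, against 1390.5, 1332 and 1669 CPM in defect 1, 2 and 3. MMP13, a collagenase (chromosome 9, 33549003 to 33616700), had 0.949, 1.14 and 0.736 CPM in implantation A 1, 2 and 3, against 218, 195 and 245 CPM in defect 1, 2 and 3. In all 3 genes the defect libraries, shallow ones included, lay far above every implantation A library, with log2 fold changes of -8.98, -8.38 and -7.96. The largest changes were taken only from genes whose libraries did not overlap between the groups, so a separation was set by the choice. The other 9 of the 12 largest falls were ADAMDEC1 (-8.38, a metalloprotease-like protein), ARG1, AMCF-II (-8.00, a pig neutrophil chemokine), IBSP (-7.04, bone sialoprotein), SAA3 (-6.46, an acute phase protein), LYZ (-5.34, lysozyme), F13A1 (-4.61, factor XIII of macrophages), MASP1 (-4.59, a protease of the lectin pathway) and SOD2 (-4.10, mitochondrial superoxide dismutase). SAA3 belongs to a family of near-identical copies, so its reads may be shared with them. All 12 were still called without defect 3, but the choice had already required defect 1 and 2 to lie apart from implantation A.

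Several of the largest rises were in genes known from secretory or lining epithelium. DMBT1, a scavenger receptor protein of mucosal surfaces (chromosome 14, 132154346 to 132231274), had 66.8, 69.2 and 65.8 CPM in implantation A 1, 2 and 3, against 0, 0 and 0.623 CPM in defect 1, 2 and 3. MUC4, a membrane mucin (chromosome 13, 134192412 to 134248435), had 216, 215 and 225 CPM in implantation A 1, 2 and 3, against 4.84, 16.6 and 17.7 CPM in defect 1, 2 and 3. CRTAC1, a secreted matrix protein of cartilage and other tissues (chromosome 14, 109237182 to 109390832), had 564, 578 and 581 CPM in implantation A 1, 2 and 3, against 63, 116 and 76.5 CPM in defect 1, 2 and 3. The 3 implantation A libraries lay within a narrow range for each, with log2 fold changes of 6.78, 3.65 and 2.89. That they lay above all defect libraries was set by the choice of genes, as for the falls. DMBT1 had 0 counts in defect 1 and defect 2, which at their floors allows up to 14.4 and 12 CPM. The other 9 were WFDC2 (6.0, a secreted epithelial protein), CYP3A46 (3.87, a cytochrome P450), PADI1 (3.70, an arginine deiminase of stratified epithelium), FOSB (3.68, an AP-1 factor), BCAN (3.18, brevican, a proteoglycan of nervous tissue), KRT15 (2.88, a basal keratin), AQP5 (2.84, a water channel of glands), DPEP1 (2.81, a membrane dipeptidase) and MUC19 (2.73, a gel-forming mucin). CYP3A46 has near-identical family members that may share its reads. Like the largest falls, all 12 were called without defect 3 as well, with the same limit.

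**Figure D1:**
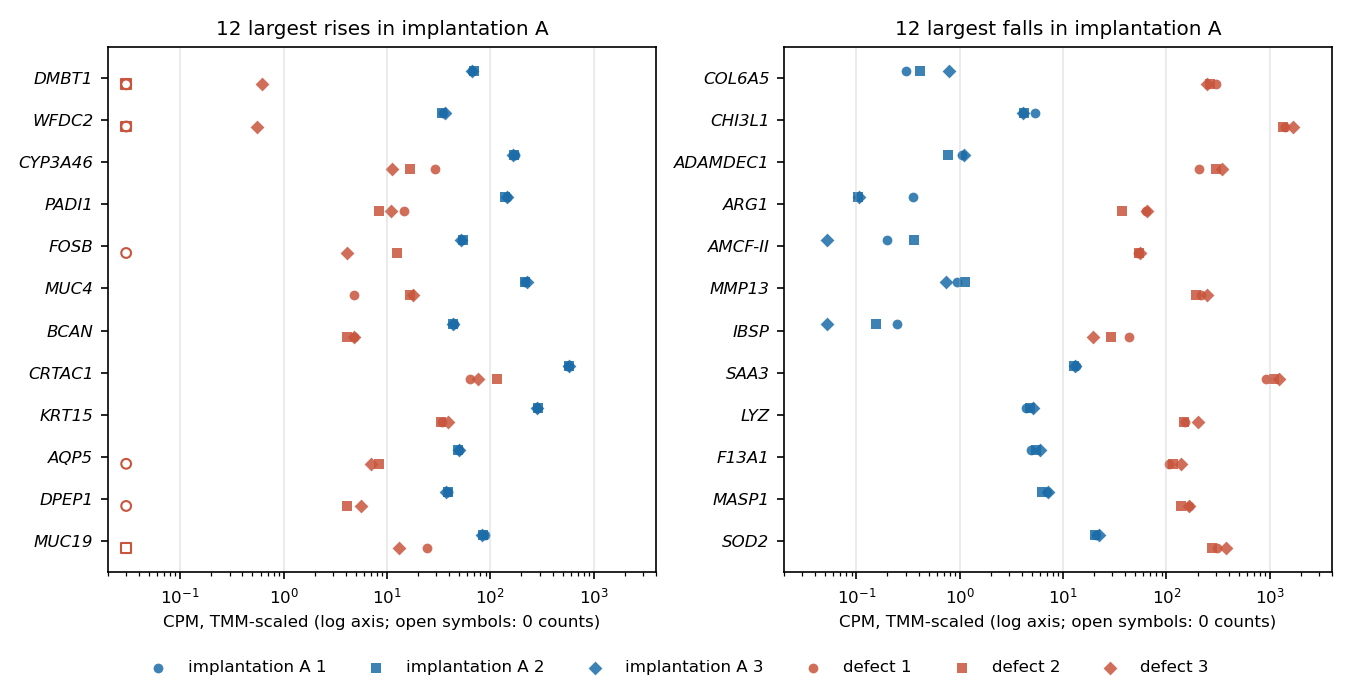
The 12 largest rises and the 12 largest falls in implantation A against defect, with the CPM of each library on a log axis and 1 symbol per library, open at the left edge where a library had 0 counts. The shallow defect libraries lie beside defect 3 in the falls, while several of the rises have 0 counts in defect 1 or defect 2.

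Contractile genes of smooth muscle were higher in implantation A than in defect. Of 20 listed and tested genes, 17 rose and 3 fell, with a median log2 fold change of 0.63. Their summed level, by library total, was 12472, 12474 and 12574 CPM in implantation A 1, 2 and 3, against 6613, 6407 and 6502 CPM in defect 1, 2 and 3. The groups did not overlap, and the shallow defect libraries lay beside defect 3. SMTN, smoothelin of the differentiated contractile cell, had 433, 429.9 and 454 CPM in implantation A 1, 2 and 3, against 199, 170.1 and 187 CPM in defect 1, 2 and 3. CNN1, calponin, and TPM1, tropomyosin, had log2 fold changes of 1.17 ± 0.084 (SE, edgeR adjusted p = 1.71e-21) and 1.16 ± 0.085 (SE, edgeR adjusted p = 2.46e-21). TAGLN (0.90, transgelin), ACTG2 (0.93, enteric smooth muscle actin) and DES (0.30, desmin) rose as well, and so did MYOCD (1.25, myocardin, the coactivator that drives contractile genes). ITGA8 (-0.71, an integrin chain), CALD1 (-0.33, caldesmon) and SYNM (-0.28, synemin) fell. Without defect 3 the list had 14 higher and 0 lower, and MYOCD (2.58), ITGA8 (-0.16), CALD1 (-0.08) and SYNM (0.00) did not pass. SYNM turned to 0.00 by library totals as well, while the skeletal muscle list summed to 53.2, 50.9 and 53 CPM in implantation A 1, 2 and 3, against 19.3, 48 and 36.9 CPM in defect 1, 2 and 3, a small part of either total.

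**Figure D2:**
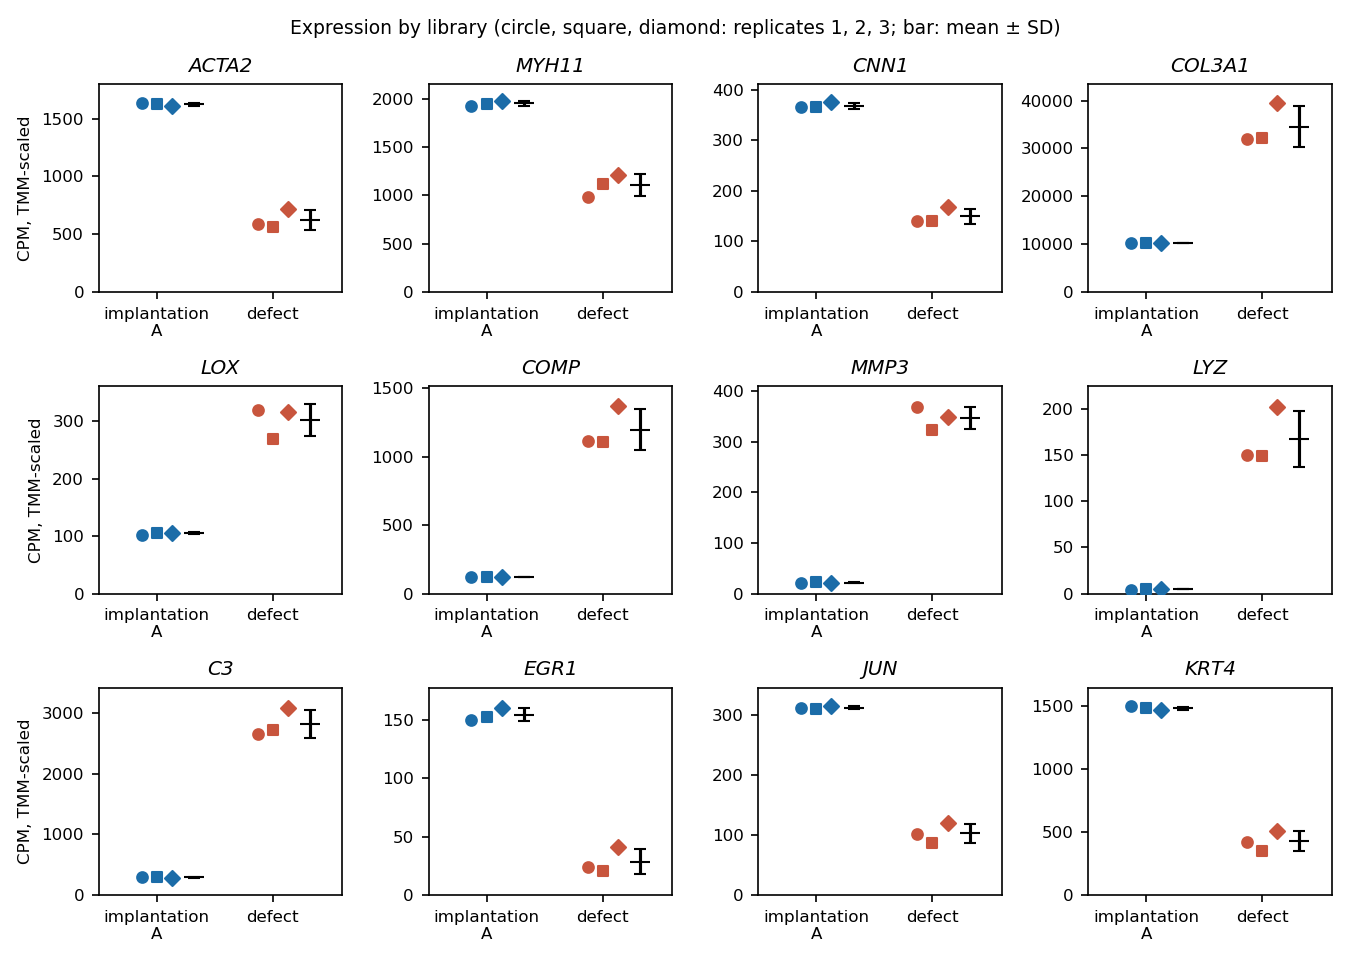
TMM-scaled CPM of single genes in each library of implantation A (left) and defect (right), 1 symbol per library, on a linear axis from 0 for each gene, with a bar for the mean and SD of 3 libraries. All implantation A libraries lie above all defect libraries for ACTA2, while COL3A1 lies the other way round.

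Ion channels and the nitric oxide pathway of erection moved less evenly. Of 19 tested of 20 listed channel genes, 8 rose and 5 fell (median 0.25). CACNA1H (0.88), a T-type calcium channel, rose, and ABCC9 (-0.84, the sulfonylurea receptor of vascular potassium channels), CACNA1C (-0.71, the L-type calcium channel) and KCNMA1 (-0.44, the BK potassium channel) fell. Of 20 listed and tested nitric oxide and cyclic GMP genes, 5 rose and 4 fell (median 0.09), near the shares of all genes tested (20.4% higher and 21.4% lower). By library totals 11 were higher and 2 lower, where 44.4% and 9.86% of all genes were. CAV1 (0.60), caveolin of endothelium and muscle, rose, and ARG1, which uses the arginine that nitric oxide synthases need, fell. NOS3, the endothelial nitric oxide synthase, had 126, 127 and 128 CPM in implantation A 1, 2 and 3, against 82.4, 99.6 and 123 CPM in defect 1, 2 and 3, and its log2 fold change of 0.09 ± 0.084 (SE, edgeR adjusted p = 0.425) did not pass. PDE5A, the phosphodiesterase that sildenafil inhibits, had 74.5, 72.2 and 69.5 CPM in implantation A 1, 2 and 3, against 48.4, 37.3 and 89.9 CPM in defect 1, 2 and 3. Its group means and its log2 fold change of -0.25 ± 0.098 (SE, edgeR adjusted p = 0.0381) pointed opposite ways, its call was lost when any 1 implantation A library was left out (-0.26 to -0.21), and the value was 0.77 without defect 3. Also without defect 3, the channels had 2 higher and 0 lower and the nitric oxide genes 2 higher and 1 lower, and ABCC9 (-0.79), CACNA1C (-0.83) and KCNMA1 (-0.41) did not pass. Without implantation A 1 or implantation A 3, the nitric oxide genes that fell numbered 2. Of the receptors and kinases of contraction, 4 of 20 rose and 6 fell, against 20.4% and 21.4% of all genes tested. By library totals 6 were higher and 5 lower. PTGER2 (-1.85), a prostaglandin receptor, fell the furthest of them.

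Fibrillar collagens were lower in implantation A than in defect. Of 13 listed and tested genes, 11 fell and 2 rose, with a median log2 fold change of -0.91. Their sum was 74424, 74618 and 74551 CPM in implantation A 1, 2 and 3, against 137792, 142079 and 139433 CPM in defect 1, 2 and 3, and normal tissue had 18238, 18191 and 18020.1 CPM in normal 1, 2 and 3. All implantation A libraries lay below all defect libraries and above all normal ones. COL1A1, the major chain of type I collagen, took 4.40% to 4.42% of all counts in implantation A and 6.61% to 7.11% in defect, a log2 fold change of -0.78 ± 0.099 (SE, edgeR adjusted p = 1.91e-10). COL14A1 (-1.83), COL12A1 (-1.52) and COL16A1 (-1.15), which coat or link fibrils, fell further. COL2A1, the collagen of cartilage, went against the list with 310.1, 313 and 306 CPM in implantation A 1, 2 and 3, against 58.1, 49.8 and 87.9 CPM in defect 1, 2 and 3, a log2 fold change of 1.87 ± 0.09 (SE, edgeR adjusted p = 1.96e-32). COL27A1 (0.37), another cartilage fibril collagen, rose as well. Collagen VI, the beaded filament around cells, fell through COL6A3 (-0.88), COL6A2 (-0.49) and COL6A5, with 4 of 4 tested chains lower, of 5 listed. Without defect 3 the fibrillar list had 2 higher and 10 lower and collagen VI 0 higher and 3 lower.

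Most enzymes that process collagen were lower too. Of 21 listed and tested genes of hydroxylation, processing and crosslinking, 14 fell and 0 rose (median -0.34). LOX, lysyl oxidase, which crosslinks collagen and elastin, had 103, 106 and 106 CPM in implantation A 1, 2 and 3, against 319.8, 269.7 and 316 CPM in defect 1, 2 and 3, a log2 fold change of -1.57 ± 0.071 (SE, edgeR adjusted p = 3.60e-34). ADAMTS2 (-1.86), the procollagen N-proteinase, also fell. The libraries of the groups did not overlap for LOX. The shallow defect libraries alone gave 1 higher and 4 lower, and by library totals the list had 6 higher and 9 lower.

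Most proteins that decorate the matrix fell too. Of 22 listed and tested proteoglycans and matricellular proteins, 18 fell and 2 rose (median -1.08), and without defect 3 they had 3 higher and 15 lower. COMP, cartilage oligomeric matrix protein of tendon and cartilage, had 118, 118 and 118 CPM in implantation A 1, 2 and 3, against 1114, 1104 and 1367 CPM in defect 1, 2 and 3. LUM, the collagen-binding proteoglycan lumican, had 129, 128 and 135 CPM in implantation A 1, 2 and 3, against 858, 867 and 949.9 CPM in defect 1, 2 and 3. Both were several-fold lower in every implantation A library than in any defect library, with log2 fold changes of -3.42 and -2.81. ASPN (-3.02, asporin), THBS4 (-2.52) and THBS2 (-2.56, thrombospondins) fell alongside, and SPARC (-0.67, a collagen-binding glycoprotein) fell less. CTGF (0.39) and CYR61 (0.54), matricellular proteins that mechanical load induces, rose. SPP1, osteopontin, fell (-1.11) but did not pass without defect 3 (-0.62). Of 10 listed and tested tendon genes, which share COMP, ASPN, THBS4 and others with this list, 7 fell, CHAD (-2.81, chondroadherin) and KERA (-1.52, keratocan) among them, and 2 rose, against 1 higher and 7 lower without defect 3.

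Most matrix proteases and inhibitors were lower in implantation A. Of 23 tested of 25 listed, 16 fell and 7 rose (median -1.09). MMP3, stromelysin, had 20.6, 23 and 20.9 CPM in implantation A 1, 2 and 3, against 368, 324 and 349.9 CPM in defect 1, 2 and 3. MMP1 (-2.53, interstitial collagenase) and MMP9 (-2.80, a gelatinase of neutrophils and macrophages) fell with it, as did the inhibitors TIMP1 (-1.76) and TIMP2 (-1.13). TIMP4 (1.55), another inhibitor, rose. With defect 3 left out, the list had 2 higher and 11 lower, and TIMP4 (1.66) did not pass.

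Most single genes of the activated and resting fibroblast lists fell, but their summed levels by library total did not. Of 15 listed and tested activated fibroblast genes 11 fell and 3 rose, and of 16 listed and tested resting fibroblast genes 11 fell and 4 rose. FAP, fibroblast activation protein, had 56, 56.6 and 57.3 CPM in implantation A 1, 2 and 3, against 233, 286 and 264 CPM in defect 1, 2 and 3. PDPN (-2.0, podoplanin, also of lymphatic vessels) and CTHRC1 (-1.83, a collagen triple helix repeat protein) fell too. The members of the activated list that rose include ACTA2 and TAGLN, which smooth muscle shares, and with them the sum of the list was 6135, 6176 and 6061 CPM in implantation A 1, 2 and 3, against 5655, 5636 and 5576 CPM in defect 1, 2 and 3. Of the resting list, C3, SFRP4 and DPT (-2.01, dermatopontin) fell and PI16 (0.43), a peptidase inhibitor family member, rose. The sum of the resting list was 21954, 21524 and 21620 CPM in implantation A 1, 2 and 3, against 21322, 21549 and 21365 CPM in defect 1, 2 and 3. By library totals the implantation A sums thus lay above all defect sums for the activated list and overlapped with them for the resting list, while with TMM factors the ratios of implantation A to defect were 0.980 and 0.912. TGFBI (-1.92), SMAD3 (-1.12) and TGFB3 (-0.92) led the 10 of 18 TGF-beta genes that fell, and 4 rose. In WNT signalling 11 of 24 fell and 5 rose (9 higher and 9 lower by library totals), with the secreted antagonists WIF1 (-2.66), SFRP4 (-2.63) and DKK3 (-1.68), the ligand WNT2 (-2.48) and the receptor FZD1 (-1.0) all lower. Of 16 listed and tested elastic fibre genes, 2 rose and 9 fell (6 higher and 7 lower by library totals), with the microfibril proteins LTBP2 (-2.41) and FBN1 (-1.21) lower and FBN2 (1.16), a second fibrillin, higher. Without defect 3 the TGF-beta list had 3 higher and 4 lower, the WNT list 0 higher and 6 lower and the elastic fibre list 2 higher and 5 lower, and the activated and resting fibroblast lists had 2 higher and 9 lower each. PI16 (0.54) and FBN2 (1.12) did not pass there.

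The basement membrane list had no common direction. Of 17 listed and tested, 6 rose and 7 fell, with AGRN (0.89, agrin) higher and LAMB1 (-0.63, a laminin chain) lower. The number that fell dropped to 3 when any 1 implantation A library was left out, and without defect 3 the list had 6 higher and 1 lower. By library totals 7 were higher and 2 lower.

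**Figure D3:**
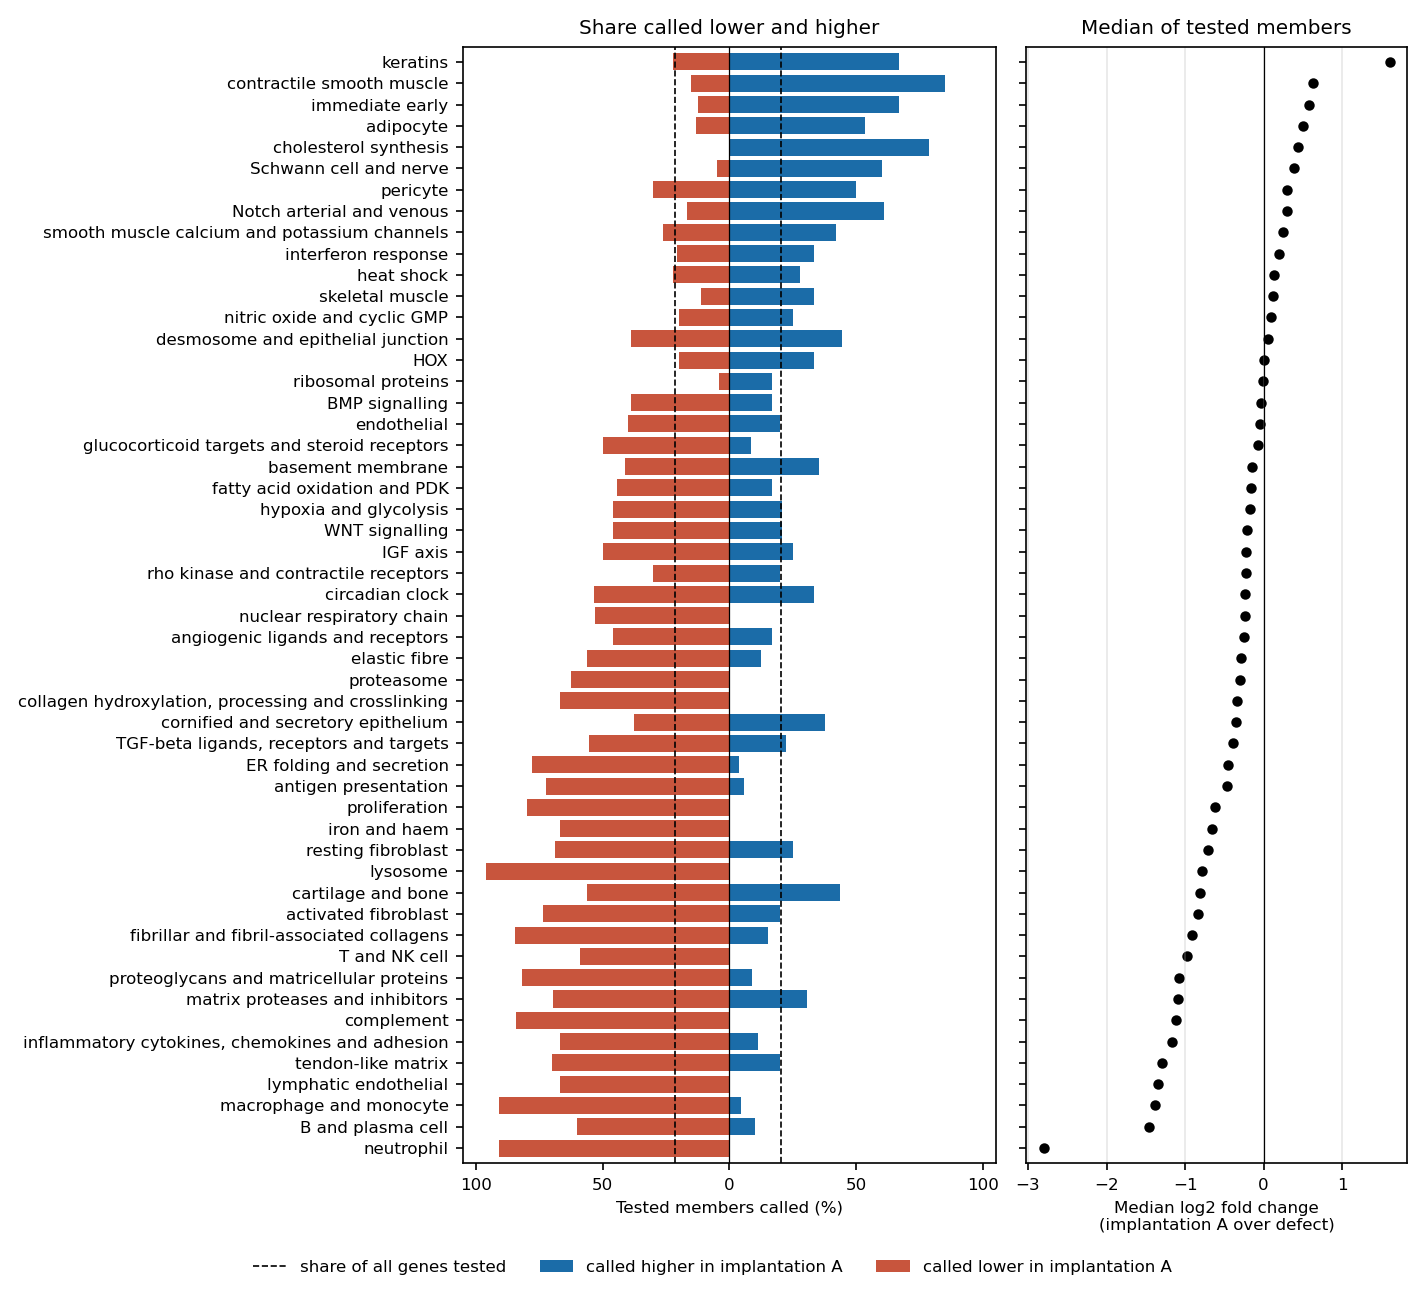
Left, the percent of the tested genes of each list called higher (bars to the right) or lower (bars to the left) in implantation A than in defect by edgeR, with the shares of all genes tested, 20.4% and 21.4%, as dashed lines. Right, the median log2 fold change of each list. Lists are ordered by that median, with contractile smooth muscle and immediate early genes near the top and complement and macrophage lists near the bottom.

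Nearly all macrophage markers tested were lower in implantation A, and 1 was higher. Of 23 listed markers, 22 were tested, 20 fell and 1 rose (median -1.39). LYZ, lysozyme, had 4.34, 4.8 and 5.16 CPM in implantation A 1, 2 and 3, against 150.2, 149 and 202 CPM in defect 1, 2 and 3. CD163, the haemoglobin scavenger receptor of tissue macrophages, had 18, 19.2 and 19.7 CPM in implantation A 1, 2 and 3, against 87.2, 99.6 and 111 CPM in defect 1, 2 and 3. No defect library overlapped with implantation A for either gene, and normal tissue had 1.09 ± 0.449 CPM of LYZ and 31.9 ± 0.372 CPM of CD163 (SD, n = 3). MRC1 (-2.30, the mannose receptor), CD14 (-1.87, an endotoxin co-receptor) and C1QC (-1.44, a complement C1q chain) fell too. APOE, apolipoprotein E of macrophages and of several other cell types, had 2678, 2623 and 2718 CPM in implantation A 1, 2 and 3, against 862, 975 and 1079.5 CPM in defect 1, 2 and 3, a log2 fold change of 1.4 ± 0.09 (SE, edgeR adjusted p = 1.49e-24). With APOE in it, the summed level of the list was higher in implantation A, with 3403, 3348 and 3429 CPM in implantation A 1, 2 and 3, against 2373, 2506 and 2549 CPM in defect 1, 2 and 3. The shallow defect libraries alone gave 1 higher and 13 lower.

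Most other white cell genes that were called fell. Of 11 neutrophil genes tested of 14 listed, 10 fell, CSF3R (-3.13, the G-CSF receptor) and S100A8 (-0.59, a calprotectin chain that squamous epithelium also makes) among them. The sum of the neutrophil list was 1169, 1185 and 1141 CPM in implantation A 1, 2 and 3, against 1333, 1087 and 1383 CPM in defect 1, 2 and 3, and these sums overlapped. Of 10 B and plasma cell genes tested of 12, 6 fell and 1 rose, and of 17 T and NK cell genes tested of 21, 10 fell and 0 rose. JCHAIN, which joins secreted IgA and IgM, had 17.9, 16.9 and 18.3 CPM in implantation A 1, 2 and 3, against 96.9, 133 and 122 CPM in defect 1, 2 and 3. The shallow defect libraries showed JCHAIN as clearly as defect 3. POU2AF1 (-4.30), a B cell coactivator, fell too, as did CD4 (-2.67) of T helper cells and MZB1 (-2.50, a plasma cell chaperone). Without defect 3, CSF3R (-2.46), S100A8 (-0.19), CD4 (-1.94) and MZB1 (-2.51) did not pass, and the neutrophil, B and T cell lists had 1, 2 and 0 lower. DESeq2 called 4 T and NK cell genes lower, and limma on log2 of TPM plus 1 called 2 lower and 1 higher. Of all 17855 genes tested, DESeq2 called 1889 lower, and limma on TPM called 959 lower and 4694 higher. The B cell gene that rose was also not called without implantation A 2, without defect 3 or without defect 1 and 2 together.

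Most complement and acute inflammatory genes fell. Of 19 listed and tested complement genes, 16 fell and 0 rose (median -1.12), and their sum was 2594, 2615 and 2599 CPM in implantation A 1, 2 and 3, against 7884, 8042 and 7929 CPM in defect 1, 2 and 3. C3, the central component, had 292, 289.7 and 286 CPM in implantation A 1, 2 and 3, against 2659.9, 2718 and 3084 CPM in defect 1, 2 and 3, a log2 fold change of -3.31 ± 0.077 (SE, edgeR adjusted p = 1.02e-55). C1S (-2.26), C1R (-1.96), C4A (-1.88) and C7 (-2.33) fell, where the C4 genes are near-identical copies. Of 27 cytokine, chemokine and adhesion genes tested of 33, 18 fell and 3 rose (median -1.16). SAA3 had 13.3, 12.8 and 13 CPM in implantation A 1, 2 and 3, against 911, 1091 and 1240.2 CPM in defect 1, 2 and 3. CCL2 (-3.02, the monocyte chemokine), VCAM1 (-1.41) and SELE (-2.05), endothelial adhesion molecules, and CXCL14 (-1.16) fell. IL6 fell (-3.25), at 0.531 ± 0.0345 CPM over the implantation A libraries and 3.39 ± 2.95 CPM over those of defect (SD, n = 3 each), but did not pass without defect 3 (-2.05). There the complement list had 0 higher and 13 lower and the cytokine list 0 higher and 9 lower.

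Most lysosomal and antigen-presenting genes fell as well. Of 24 lysosome genes tested of 25, 23 fell and 0 rose (median -0.79), led by the cathepsins CTSH (-1.26) and CTSK (-1.17) and the membrane protein LAMP2 (-1.22). Of 18 listed and tested antigen presentation genes, 13 fell and 1 rose, with CTSS (-1.39, cathepsin S) and SLA-DRB1 (-1.20, a pig MHC class II chain) foremost. SLA genes are near-identical copies, so their single values are uncertain. Of 24 interferon response genes tested, 8 were higher and 5 lower, where 20.4% of all genes were higher and 21.4% lower. By library totals 19 were higher and 0 lower, where 44.4% of all genes were higher and 9.86% lower. MX1 (0.80, an antiviral GTPase), RSAD2 (1.09, viperin), IFI6 (0.75) and IRF9 (0.41, part of the interferon-activated factor) rose, IRF9 not without defect 3 (0.48). Without defect 3 the lysosome list had 0 higher and 13 lower, antigen presentation 0 higher and 6 lower and interferon response 5 higher and 0 lower. Macrophage markers fell in the same libraries, and their part in the lysosome and antigen presentation counts was not tested. The interferon genes that fell numbered 2 or 3 when any 1 implantation A library was left out.

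**Figure D4:**
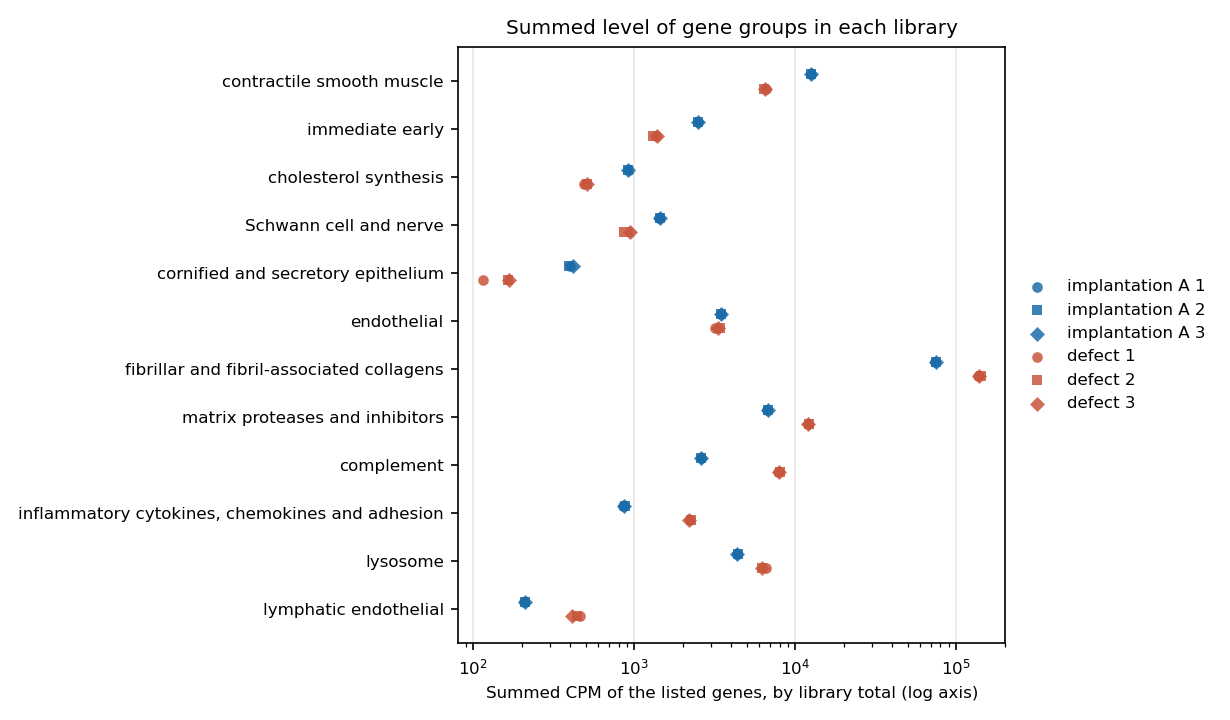
Summed CPM, by library total, of 12 gene lists in each library of implantation A (upper symbols) and defect (lower symbols), on a log axis, 1 symbol per library. The shallow defect libraries lie close to defect 3 except defect 1 for cornified and secretory epithelium. The contractile sum is 12472 CPM in the lowest implantation A library and 6613 CPM in the highest defect library.

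Immediate early genes, which are transcribed within minutes of a stimulus and many of which encode transcription factors, were higher in implantation A. Of 24 tested of 25 listed, 16 rose and 3 fell (median 0.57), and their sum was 2496, 2483 and 2497 CPM in implantation A 1, 2 and 3, against 1362, 1319 and 1385 CPM in defect 1, 2 and 3. FOS had 92.3, 87 and 84 CPM in implantation A 1, 2 and 3, against 24.2, 4.15 and 16.1 CPM in defect 1, 2 and 3. EGR1 had 149.9, 152 and 160.5 CPM in implantation A 1, 2 and 3, against 24.2, 20.7 and 40.7 CPM in defect 1, 2 and 3. Both were several-fold above the defect libraries, with log2 fold changes of 2.46 ± 0.12 (SE, edgeR adjusted p = 3.55e-31) and 1.96 ± 0.098 (SE, edgeR adjusted p = 3.37e-31). FOSB, JUN (1.42), NR4A3 (2.28) and DUSP1 (1.26, a phosphatase of MAP kinases) rose, and so did SRF (0.75), the serum response factor that pairs with myocardin. SOCS3 (-1.57), a feedback inhibitor of IL-6 signalling, fell, as did FOSL2 (-0.49) and JUNB (-0.33). With defect 3 left out, the list had 13 higher and 1 lower, FOSL2 (-0.11) and JUNB (-0.29) did not pass, and on TPM values FOSL2 stood at 0.10.

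Most genes of cell division and protein folding were called lower by edgeR, but how many depended on the method and on defect 3. Of 25 listed and tested proliferation genes, 20 fell and 0 rose by edgeR (median -0.62), while over the same libraries DESeq2 called 3 lower, limma-voom 2, limma 2 on log2 of TPM plus 1 and edgeR by library totals 9, with 1 higher. Of all 17855 genes tested, DESeq2 called 1889 lower, limma-voom 1243, limma on TPM 959 and edgeR by library totals 1761. The proliferation counts by DESeq2 and limma-voom were thus near the share of all genes. MKI67, the Ki-67 antigen of cycling cells, had 43.5, 44.7 and 44.8 CPM in implantation A 1, 2 and 3, against 63, 83 and 75 CPM in defect 1, 2 and 3. RRM2 (-1.42, ribonucleotide reductase) and TOP2A (-0.76, topoisomerase) fell. In the shallow libraries the list had 0 higher and 1 lower, and MKI67 (-0.73) and TOP2A (-0.27) did not pass. Of 27 listed and tested endoplasmic reticulum folding and secretion genes, 21 fell and 1 rose, CALR (-0.88, calreticulin) and PDIA3 (-0.78, a disulfide isomerase) first, against 1 higher and 5 lower without defect 3. For these genes DESeq2 called 16 lower, limma-voom 10 and limma 7 on log2 of TPM plus 1. Of 24 listed and tested proteasome genes 15 fell and 0 rose. By library totals 4 of them were higher and 2 lower, where 44.4% of all genes were higher and 9.86% lower. Ribosomal protein genes had a median of -0.01 with 4 of 24 higher and 1 lower, and 20 higher by library totals. The ribosomal genes that fell numbered 0 without implantation A 2, implantation A 3 or defect 3, 3 without defect 1 or defect 2 and 9 without both, and without defect 3 the proteasome list had 0 higher and 1 lower. In that fit 8 ribosomal genes were higher.

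Endothelial transcripts showed little net difference. Of 20 listed and tested genes, 4 rose and 8 fell (median -0.05), and their sum was 3487, 3470.2 and 3483 CPM in implantation A 1, 2 and 3, against 3157, 3438 and 3309 CPM in defect 1, 2 and 3. Normal 1, 2 and 3 had 6279.7, 6249 and 6069.9 CPM. The sums of implantation A and defect lay close together and well below normal. PECAM1, the CD31 junction protein, had 448, 461 and 457 CPM in implantation A 1, 2 and 3, against 577, 427 and 579 CPM in defect 1, 2 and 3, a log2 fold change of -0.28 ± 0.08 (SE, edgeR adjusted p = 0.00236). CLDN5 (-0.65, the endothelial tight junction claudin), KDR (-0.63, a VEGF receptor) and VWF (-0.45, von Willebrand factor) fell, and ROBO4 (0.58, an endothelial guidance receptor) rose. With defect 3 left out, the list had 4 higher and 1 lower, and PECAM1 (-0.12), CLDN5 (-0.53) and KDR (-0.08) did not pass. By library totals 10 were higher and 4 lower, where 44.4% of all genes were higher and 9.86% lower.

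Most Notch genes rose and most lymphatic genes fell. Of 18 listed and tested Notch, arterial and venous genes, 11 rose and 3 fell (median 0.30), with NOTCH4 (0.76), NOTCH3 (0.56, the receptor of mural cells), the ligand JAG1 (0.49) and the target HES1 (0.68) higher and GJA4 (-0.88, an arterial connexin) lower. Of 9 lymphatic genes tested of 10, 6 fell and 0 rose, with 0 higher and 6 lower without defect 3. CCL21, the chemokine that guides cells into lymph vessels, had 47.6, 48.7 and 45.8 CPM in implantation A 1, 2 and 3, against 136, 95.4 and 121 CPM in defect 1, 2 and 3. LYVE1 (-3.75, a hyaluronan receptor), MMRN1 (-1.41, a multimerin) and TBX1 (-1.35) fell. Among 24 angiogenic ligands and receptors tested of 25, 4 rose and 11 fell (9 higher and 6 lower by library totals), with VEGFA (0.78) and APLN (1.23, apelin) higher and PDGFD (-0.58) lower. Of 10 pericyte genes tested of 11, 5 rose and 3 fell, NDUFA4L2 (-0.97) the furthest. VEGFA (0.32), APLN (0.38), PDGFD (-0.24) and NDUFA4L2 (-0.40) did not pass without defect 3, where the Notch list had 6 higher and 1 lower, the angiogenic list 1 higher and 1 lower and the pericyte list 4 higher and 1 lower.

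Epithelial transcripts were present in every group, although the labels name corpus cavernosum only, and they changed in kind. KRT5, the keratin of basal cells of stratified epithelium, had 1537, 1541 and 1539 CPM in implantation A 1, 2 and 3, against 2161, 2087 and 2541 CPM in defect 1, 2 and 3, and normal tissue had 673 ± 32.6 CPM (SD, n = 3). KRT6A, a keratin of wounded and hyperproliferative epithelium with near-identical copies, had 239, 242 and 240.5 CPM in implantation A 1, 2 and 3, against 1822, 1747 and 2083 CPM in defect 1, 2 and 3. KRT4, a keratin of internal, non-cornified epithelium, had 1496, 1481 and 1469.7 CPM in implantation A 1, 2 and 3, against 422, 353 and 509 CPM in defect 1, 2 and 3. The defect libraries were thus higher in KRT5 and KRT6A and the implantation A libraries higher in KRT4, with log2 fold changes of -0.60 ± 0.078 (SE, edgeR adjusted p = 5.63e-10), -3.01 ± 0.075 (SE, edgeR adjusted p = 2.09e-53) and 1.64 ± 0.089 (SE, edgeR adjusted p = 3.98e-29). KRT5 changed the least of these, and its level in implantation A also lay above the normal mean, which was not tested here. Of 9 keratins tested of 16, 6 rose and 2 fell, and their sum was 3724, 3733 and 3696 CPM in implantation A 1, 2 and 3, against 4491, 4101 and 4248 CPM in defect 1, 2 and 3. KRT19 (1.6) and KRT8 (1.61), keratins of simple epithelium, rose with the junction genes CLDN4 (1.23) and CLDN7 (1.28), EVPL (1.11, envoplakin) and the mucin MUC1 (3.91). TGM3 (-6.13, a transglutaminase of cornification) and SBSN (-2.51, suprabasin of the epidermis) fell. Of 18 junction genes 8 rose and 7 fell, and of 16 cornified and secretory genes tested of 20, 6 rose and 6 fell. Against defect 1 and 2 alone the junction list had 6 higher and 1 lower and the cornified and secretory list 4 higher and 1 lower. In that fit the keratins had 2 higher and 2 lower, and KRT19 (0.66), KRT8 (0.76) and SBSN (-1.47) did not pass. The part of epithelium in the falls of inflammatory genes that it also expresses, such as S100A8, was not tested.

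Most nerve, lipid and cholesterol genes tested rose by edgeR, but how many depended on the method. Of 20 Schwann cell and nerve genes tested of 21, 12 rose and 1 fell (median 0.38). NGFR, the low-affinity neurotrophin receptor, had 121, 118 and 127 CPM in implantation A 1, 2 and 3, against 33.9, 62.2 and 61.8 CPM in defect 1, 2 and 3. SOX10 (0.90), a Schwann cell transcription factor, rose, and NEFL (2.08), a neurofilament of axons, rose but did not pass without defect 3 (1.44). Of 14 tested of 15 listed cholesterol synthesis genes, 11 rose and 0 fell, SQLE (1.02, squalene epoxidase) and INSIG1 (0.74, a sterol sensor partner) among them. Of 15 adipocyte genes tested of 18, 8 rose and 2 fell. PLIN1, the coat protein of fat droplets, had 28.8, 28.2 and 28.2 CPM in implantation A 1, 2 and 3, against 0, 8.3 and 4.99 CPM in defect 1, 2 and 3, and FASN (0.83) and SCD (0.56), which make fatty acids, rose. ADIPOQ, the adiponectin of fat cells, had 14, 5 and 14 counts in implantation A 1, 2 and 3, against 0, 0 and 8 counts in defect 1, 2 and 3 and was not tested. DESeq2 called 7 nerve, 9 cholesterol and 6 adipocyte genes higher and 1 adipocyte gene lower. With limma-voom 6, 4 and 3 were higher and 0 lower. Of all 17855 genes tested, DESeq2 called 1941 higher and limma-voom 556. In the shallow libraries the nerve list had 5 higher and 0 lower, cholesterol synthesis 4 higher and 0 lower and the adipocyte list 3 higher and 0 lower. Without implantation A 3 the nerve and adipocyte genes that fell numbered 0 and 1.

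Counts called in the energy metabolism lists moved with the scaling, as they did for all genes. By library totals 44.4% of all genes were higher and 9.86% lower. Of 24 listed and tested hypoxia and glycolysis genes, 5 rose and 11 fell, against 11 and 5 by library totals. ALDOC, an aldolase, had 274, 283 and 283 CPM in implantation A 1, 2 and 3, against 58.1, 70.5 and 75.2 CPM in defect 1, 2 and 3, a log2 fold change of 1.91 ± 0.094 (SE, edgeR adjusted p = 7.86e-32). PKM (-0.76, pyruvate kinase) and LDHA (-0.72, lactate dehydrogenase) fell. PDK4, the kinase that turns off pyruvate dehydrogenase, had 8.59, 7.49 and 8.42 CPM in implantation A 1, 2 and 3, against 0, 12.4 and 4.85 CPM in defect 1, 2 and 3, and normal tissue had 97.6 ± 7.71 CPM (SD, n = 3). PDK4 was thus low in both groups, and its log2 fold change of 0.73 was 0.29 without defect 3 and did not pass there. LDHA did not pass there either (-0.39), and the hypoxia and glycolysis list had 1 higher and 3 lower. Of 17 nuclear respiratory chain genes tested of 24, 0 rose and 9 fell, against 2 higher and 1 lower by library totals. Of 18 genes of fatty acid oxidation and pyruvate dehydrogenase kinases tested of 19, 3 rose and 8 fell, against 8 and 4 by library totals. Without defect 3 both of these lists had 0 higher and 0 lower.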

How the data were processed

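Polyadenylated RNA was sequenced from pig corpus cavernosum. The authors deposited raw counts per gene and TPM values, which correct for transcript length and depth, in 1 table each of 26654 genes. Per the submitters' processing notes, the tools were fastp, HISAT2, HTSeq and DESeq2 and the build Sscrofa11.1, with no version or setting. No source states a strand setting, so reads of a gene and of its overlapping or antisense partner cannot be told apart. Coordinates are RefSeq's for Sscrofa11.1, in which 99.9% of the symbols were found.

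Counts of implantation A, defect and normal (9 libraries) were fitted together with edgeR 4.0.16 in R 4.3.3: filterByExpr, TMM factors, robust glmQLFit and glmQLFTest, two-sided, with Benjamini-Hochberg adjusted p under 0.05 over all genes tested. The SE is the absolute log2 fold change divided by the root of F. Because the fit weights libraries by depth, a fold change in defect need not equal the ratio of the mean CPM. CPM of single genes are scaled by TMM factors, and summed levels use library totals. With 3 against 3 libraries an exact permutation test cannot go below 0.10. Floors cover counting error only.

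55 lists (972 genes) and the rule for named genes were chosen with earlier results of these data known. Named are 30 fixed genes, the 12 largest rises and falls (a symbol, adjusted p under 0.05, mean of at least 30 CPM in the higher group, no overlap of libraries), and, of each list described, up to 5 members ranked by p, plus members that contrast with them; some items are not reported here. Alternatives were DESeq2 1.42.0, limma 3.58.1 on voom weights or on log2 of TPM plus 1 or 0.1, other scalings and filters, other sets of libraries, a replicate block, thinning and leaving out each library. The scripts were tested on simulated counts.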

Additional observations from a re-analysis of the deposited data

How the results depend on the processing

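The counts of genes changed, genes higher, genes lower and genes changed at least 2-fold moved under some settings. Against 7465 (3642 higher, 3823 lower, 2056 at least 2-fold), DESeq2 called 3830 (1941 higher, 1889 lower, 1191 at least 2-fold). Requiring at least 3 counts in all 6 libraries gave 4741 (2403, 2338, 469) from fewer genes tested. Limma-voom with quality weights gave 1799 (556, 1243, 1133). Its quality weight was 0.124 for defect 3, against 0.612 and 0.683 for defect 1 and 2, so that fit marked down the deep defect library. Implantation A libraries had weights of 1.96 to 2.16. Thinning all libraries to the shallowest gave 877 (375, 502, 439) of 5363 tested. By library size only the split was 7931 higher and 1761 lower, and on log2 of TPM plus 1 or 0.1 the genes lower were 959 and 895, where the median of all genes lay at 0.33 by library size. Giving defect 1 and 2 the TMM factor of defect 3, an alternative chosen after seeing the data, called 7810. Leaving out each library in turn gave 1455 to 7556 genes changed, 935 to 3570 higher, 520 to 3986 lower and 888 to 2106 at least 2-fold, with the lowest value of each without defect 3. Upper-quartile and RLE factors, no low-count filter, fits of 6 or 15 libraries, leaving out defect 1 and 2 together and an adjusted p under 0.01 stayed within 1.5 times.

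Of 175 named genes tested, the PDE5A log2 fold change turned to 0.054 by library size only, 0.073 with voom, 0.47 and 0.50 on TPM plus 1 and 0.1, 0.25 after thinning and 0.77 without defect 3. The SYNM log2 fold change turned to 0.0021 by library size only, 0.047 and 0.048 on TPM plus 1 and 0.1 and 0.0045 without defect 3, and the FOSL2 log2 fold change to 0.10 on TPM with either. Leaving out single libraries gave -0.29 to 0.77 for PDE5A and -0.31 to 0.0045 for SYNM. Without defect 3, 140 of the 175 kept their direction and call. Many of the named genes were chosen by small p or by libraries that did not overlap, which favours keeping a call. The share thus does not stand for all genes. Of all genes tested, 935 of 18208 were called higher and 520 lower without defect 3. In the main fit 3642 of 17855 were called higher and 3823 lower. NOS3 passed by library size only, in the fit of 6 libraries, under the strict count filter and on TPM. The cause of these shifts was not tested.

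With the replicate number as a block, 6262 genes changed. Deviations of same-numbered libraries correlated at 0.0196, 0.0254 and 0.0124 over 1908 genes, and those of differently numbered libraries at -0.0511 to 0.0435. Counting error in the shallow defect 1 and 2 can hide a shared deviation, so whether the numbers pair the samples cannot be told from these values. Among the named genes the block changed the call of PDE5A only. Depth limits defect 1 and 2, where 3 counts equal 14.4 and 12 CPM.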
